A study of Mus musculus with 24 samples.

Results

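The synaptic vesicle and release machinery was described by 40 genes chosen by name, which encode the proteins that dock, prime, fuse and recycle synaptic vesicles. All 40 were found among the 22314 named genes of the table, and all 40 were among the 18364 genes with a normalized count of at least 10 in at least 2 libraries that were tested. Total RNA was prepared from hippocampi of mice subjected on postnatal day 10 to hypoxia-ischemia (HI), which models brain injury around birth. The 24 libraries formed 12 groups of 2: wild-type (WT), Neil1-KO and Neil2-KO pups, each with the hippocampus ipsilateral to the injury and the contralateral one, at 3 h and at 6 h. Neil1 and Neil2 encode DNA glycosylases, enzymes that cut oxidized bases out of DNA. How the knockout alleles were made, and the strain of the mice, are not given in the sources used here. All groups, the WT pups included, underwent HI, so the contralateral hippocampus of the same pups was the reference and no unoperated pups were analysed here. Contralateral and ipsilateral libraries that share a replicate number were treated as 1 animal, giving 12 animals, although this is not stated in the labels in so many words. The replicates are labelled as biological, and p-values measure the spread between the libraries.

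Transmitter release begins when the vesicle SNARE synaptobrevin pairs with the plasma membrane SNAREs syntaxin and SNAP-25, and calcium binding to synaptotagmin triggers fusion. Munc13, RIM, Bassoon and Piccolo organize the active zone where vesicles are primed, and dynamin, amphiphysin, synaptojanin and endophilin retrieve vesicle membrane afterwards. In the hippocampus these genes are expressed chiefly in neurons, most of which are glutamatergic principal cells that load their vesicles through VGLUT1.

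Several facts about the libraries bear on the values below. Each library held 17771293 to 29252067 reads, of which 16231616 to 26292997 lay on named genes, and a member had between 117 and 37348 reads in a library. Neil2 was at 0 to 3.02 normalized counts in the 8 Neil2-KO libraries and 15.2 to 28.7 in the other 16, while Neil1 was at 91.6 to 154.6 in the 8 libraries labelled Neil1-KO against 56.8 to 122.6 in WT, so the Neil1 level did not separate these groups in the direction of their label. The 8 libraries titled NEIL2-KO carry a genotype tag that reads NEIL1-KO, and they were grouped by title. A pair of ipsilateral 6 h libraries stood apart. Labelled Neil1-KO replicate 2 had the lowest level of 34 of the 40 genes. WT replicate 2 had the highest Tcf7l2 and Shox2, markers of thalamus (939.6 and 128.4). WT replicate 1 at 6 h came next (582.1 and 43.6), and the other ipsilateral libraries had at most 230.5 and 5.96. Leaving out WT replicate 2 therefore leaves a WT library with raised Tcf7l2 and Shox2. WT replicate 2 also had the lowest Prox1, a marker of dentate granule cells (334.9, against at least 1463 in the other 11 ipsilateral libraries). Xist, which is transcribed from the inactive X chromosome, was at 7604 to 18158 on both sides of 3 animals (labelled Neil1-KO replicate 2 at 3 h and at 6 h, and Neil2-KO replicate 2 at 6 h) and at most 20.2 in the other 9. Results were also computed without these libraries and without these animals. No WT animal had high Xist, so leaving these animals out cannot separate Xist from genotype. It leaves 1 library in each labelled Neil1-KO group and in both Neil2-KO 6 h groups.

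On average over the 6 side comparisons (3 genotypes at 2 times), 36 of the 40 genes were lower in the ipsilateral than in the contralateral hippocampus and 1, Unc13c, was higher, at an adjusted p under 0.05 over all 18364 genes tested. Of all genes tested, 27.3% were called lower and 28.1% higher in this comparison. The median log2 fold change of the 40 genes was -0.43, against 0.02 over all genes tested. The largest decreases were those of the active-zone scaffold Bsn (-1.50 on the log2 scale), the vesicle glycoprotein Sv2b (-1.31), the priming factor Unc13a (-0.90), the lipid phosphatase Synj1 (-0.87) and the vesicular glutamate transporter Slc17a7 (-0.86). The genes that were not called were Syt2 (-0.14), Slc17a6 (-0.038) and Unc13b (0.077). In a bulk sample, fewer neurons and less RNA per neuron cannot be told apart.

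By animal, 34 to 39 of the 40 genes were lower on the ipsilateral side in 11 of the 12 animals. In the WT 6 h animal 2, whose ipsilateral library had the highest Tcf7l2 and Shox2, 20 of 40 were lower. The members' reads made up 1.52% to 1.81% (median 1.63%) of the reads on named genes in the 12 contralateral libraries and 0.725% to 1.57% (median 1.28%) in the 12 ipsilateral ones. The share was lower on the ipsilateral side in all 12 animals, and the lowest share was that of the labelled Neil1-KO 6 h replicate 2. In 17 genes every animal was lower on the ipsilateral side, as in 12.8% of all genes tested. For 7 of them (Cplx2, Sv2b, Unc13a, Bsn, Amph, Synj1 and Sh3gl2) all 12 ipsilateral libraries lay below all 12 contralateral ones, as in 5.84% of all genes tested. Unc13c was the only member for which every ipsilateral library lay above every contralateral one, as in 3.41% of all genes tested.

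**Figure D1:**
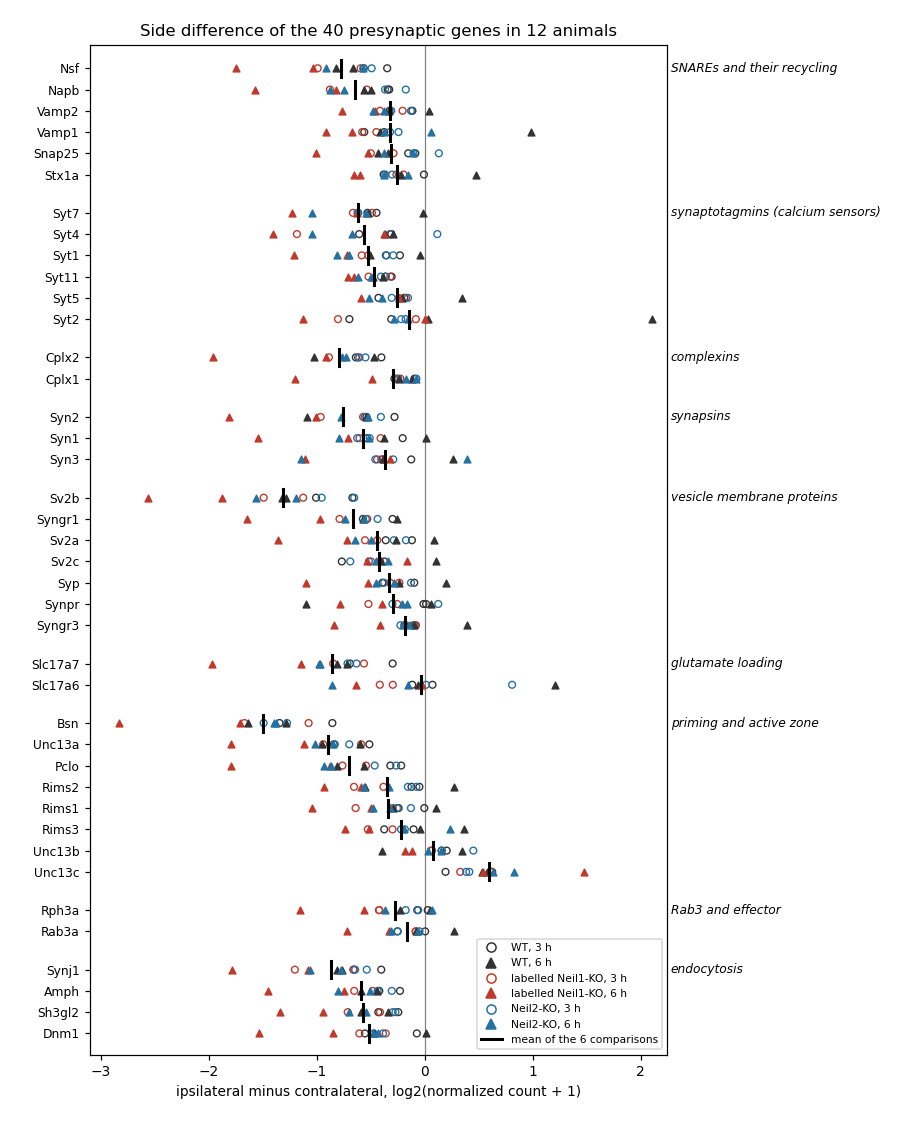
Difference between the sides (ipsilateral minus contralateral, log2 of the normalized count plus 1) for each of the 40 genes, grouped by role, with a symbol for each of the 12 animals and a bar at the mean of the 6 comparisons. Most symbols lie left of 0, Bsn and Sv2b lie farthest left, Unc13c lies right of 0 in every animal, and the WT 6 h animal 2 gives the rightmost symbol for Syt2, at 2.11.

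**Figure D2:**
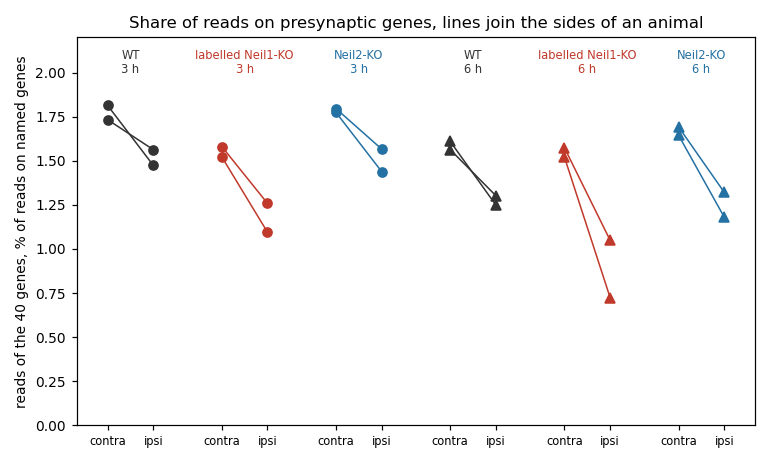
Reads of the 40 genes as a percentage of the reads on named genes, by genotype and time, with lines joining the contralateral and ipsilateral library of an animal. All 12 lines go down from the contralateral to the ipsilateral side, and the lowest point is 0.725%, labelled Neil1-KO at 6 h.

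The upstream sequences of 5 members are shown because they cover the extremes of the response and the only matches to a cAMP response element: Bsn has the largest decrease, Unc13a and Unc13c are related genes that differ in direction, and Syn1 and Sh3gl2 hold the element. They are the 250 bases before the annotated start from RefSeq, build GRCm38.p6, which is an older build than the GRCm39 of the expression table, and are written 5′ to 3′ on the gene's strand. Capitals mark matches, on either strand, to the cAMP response element (TGACGTCA), the left part of the RE1 element (TTCAGCACC), the AP-1 element (TGANTCA) or the GC box (GGGCGG); neighbouring matches run together.
Bsn, chr9:108190384-108190633, - strand: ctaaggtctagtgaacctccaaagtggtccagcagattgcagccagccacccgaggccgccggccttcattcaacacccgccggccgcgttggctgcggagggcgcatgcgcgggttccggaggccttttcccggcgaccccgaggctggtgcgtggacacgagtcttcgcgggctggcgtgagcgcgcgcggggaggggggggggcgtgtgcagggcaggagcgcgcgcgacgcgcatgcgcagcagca
Unc13a, chr8:71671758-71672007, - strand: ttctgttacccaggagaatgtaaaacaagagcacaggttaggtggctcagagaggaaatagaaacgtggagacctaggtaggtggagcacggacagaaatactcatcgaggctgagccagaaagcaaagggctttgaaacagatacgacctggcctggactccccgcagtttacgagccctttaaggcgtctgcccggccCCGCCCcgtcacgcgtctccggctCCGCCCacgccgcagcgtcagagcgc
Unc13c, chr9:73969038-73969287, - strand: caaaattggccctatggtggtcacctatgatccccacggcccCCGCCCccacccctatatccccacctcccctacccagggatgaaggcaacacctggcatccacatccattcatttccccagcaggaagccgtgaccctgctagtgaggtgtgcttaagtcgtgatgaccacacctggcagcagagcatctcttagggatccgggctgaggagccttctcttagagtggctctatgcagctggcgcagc
Syn1, chrX:20920919-20921168, - strand: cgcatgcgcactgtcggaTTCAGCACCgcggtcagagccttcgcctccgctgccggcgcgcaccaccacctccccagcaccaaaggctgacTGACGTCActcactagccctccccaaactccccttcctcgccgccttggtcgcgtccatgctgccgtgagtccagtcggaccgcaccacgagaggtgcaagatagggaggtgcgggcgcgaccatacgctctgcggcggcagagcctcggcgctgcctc
Sh3gl2, chr4:85205206-85205455, + strand: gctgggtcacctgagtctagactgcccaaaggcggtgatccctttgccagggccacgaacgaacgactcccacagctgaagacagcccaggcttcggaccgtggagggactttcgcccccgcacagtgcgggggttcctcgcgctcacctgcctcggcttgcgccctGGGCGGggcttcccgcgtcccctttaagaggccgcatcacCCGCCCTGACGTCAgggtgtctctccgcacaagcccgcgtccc
Of the 40 genes, 32 had a window in the table, with 44 windows in all. The cAMP response element was in 2 of the 44 windows (4.55%), against 1.55% of all 32851 windows of that length. The left part of RE1 was in 1 member window, that of Syn1 (0.301% of all windows), and the right part (GACAGCGCC) was in none (0.237% of all windows). The GC box was in 25 member windows (56.8%, against 32.7% of all windows), and the median GC content was 60.2% in member windows and 52.4% in all windows. The AP-1 element was in 2 member windows (4.55%, against 6.75%). The window of Bsn held none of these letters, and a match or its absence describes only these bases.

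Among the SNAREs and the proteins that recycle them, all 6 genes were lower on the ipsilateral side. The decrease was largest for Nsf, the ATPase that takes spent SNARE complexes apart, and for Napb, the beta-SNAP adaptor that recruits it. Nsf ranged from 14980.1 to 21067 (median 16775) contralaterally and 4449 to 14982 (median 10465) ipsilaterally, a log2 fold change of -0.78 ± 0.08 (SE, adjusted p 2.51e-07), and Napb had a log2 fold change of -0.64 ± 0.076 (SE, adjusted p 1.15e-06). Both were lower in 12 of 12 animals. The SNAREs themselves had smaller fold changes. Snap25 ranged from 15859 to 20657 (median 18669) contralaterally and 7873 to 20646 (median 15478) ipsilaterally, with a log2 fold change of -0.32 ± 0.061 (SE, adjusted p 0.000252). The sides overlapped for Snap25, and 1 of the 12 animals was higher on the ipsilateral side. Vamp2, the main synaptobrevin of forebrain synapses, ranged from 18425 to 24914 (median 21624) contralaterally and 11229 to 21204 (median 17274) ipsilaterally, with a log2 fold change of -0.32 ± 0.053 (SE, adjusted p 4.72e-05). Stx1a ranged from 3767 to 4813 (median 4170.4) contralaterally and 2674 to 5241 (median 3495) ipsilaterally, with a log2 fold change of -0.25 ± 0.059 (SE, adjusted p 0.00153). The highest Stx1a value was that of the ipsilateral library WT 6 h replicate 2. Vamp1, a synaptobrevin prominent in brainstem and spinal cord, was at -0.32 (adjusted p 0.017). That same library had 1437 normalized counts of Vamp1 and the other 11 ipsilateral libraries 286.1 to 739.5.

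Of the 6 synaptotagmins, 5 were lower and Syt2 was not called. Syt1, the calcium sensor of fast release in the forebrain, ranged from 19026 to 23927 (median 21599) contralaterally and 8218 to 19545 (median 14412) ipsilaterally. Its log2 fold change was -0.53 ± 0.059 (SE, adjusted p 6.19e-07), and it was lower in 12 of 12 animals. Syt7, a high-affinity calcium sensor linked to slow release and facilitation, ranged from 4577 to 6048 (median 5056) contralaterally and 1961 to 4989 (median 3474) ipsilaterally, with a log2 fold change of -0.61 ± 0.072 (SE, adjusted p 1.08e-06). Syt4 and Syt11, family members that bind calcium poorly, had log2 fold changes of -0.57 ± 0.10 (SE, adjusted p 0.00013) and -0.47 ± 0.039 (SE, adjusted p 1.85e-08). Syt5 had -0.26 ± 0.054 (SE, adjusted p 0.000565). Syt2, the fast sensor of many hindbrain and inhibitory synapses, ranged from 223 to 367 (median 272) contralaterally and 110.2 to 1042 (median 233) ipsilaterally, with a log2 fold change of -0.14 ± 0.17 (SE, adjusted p 0.489). Its highest value was again in the ipsilateral library WT 6 h replicate 2. Without that library Syt2 was called lower (-0.30 on the log2 scale, adjusted p 0.0224), as it was without both libraries that stood apart (-0.21, adjusted p 0.0197).

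Both complexins, which hold partly assembled SNARE complexes ready for calcium, were lower, by unequal amounts. Cplx2, the main complexin of hippocampal principal neurons, ranged from 26651 to 32402 (median 27995) contralaterally and 6881 to 21762 (median 18634) ipsilaterally, and the sides did not overlap. Its log2 fold change was -0.80 ± 0.10 (SE, adjusted p 1.99e-06). Cplx1 ranged from 7103 to 10025 (median 7955) contralaterally and 3085 to 9253 (median 7317) ipsilaterally, with a log2 fold change of -0.29 ± 0.067 (SE, adjusted p 0.0013). Cplx1 was lower in 12 of 12 animals too. The 3 synapsins, which tether vesicles into the reserve pool, were all lower. Syn1 ranged from 9181 to 14793 (median 11126) contralaterally and 3406 to 10865 (median 8243) ipsilaterally, with a log2 fold change of -0.57 ± 0.081 (SE, adjusted p 1.08e-05). Syn2 ranged from 11958 to 16275 (median 13670.5) contralaterally and 3398 to 11981 (median 8881) ipsilaterally, with a log2 fold change of -0.76 ± 0.091 (SE, adjusted p 1.48e-06). Syn3 had fewer reads, ranged from 155 to 395 (median 325) contralaterally and 150.2 to 474 (median 237) ipsilaterally and had a log2 fold change of -0.37 ± 0.13 (SE, adjusted p 0.0239). The call of Syn3 was lost (adjusted p up to 0.0524) when any of 5 libraries was left out: WT contralateral 3 h replicate 2, WT contralateral 6 h replicate 2, WT ipsilateral 6 h replicate 1, Neil2-KO contralateral 6 h replicate 1 or Neil2-KO ipsilateral 6 h replicate 1.

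All 7 genes for proteins of the vesicle membrane were lower, with Sv2b far below the others. Sv2b ranged from 8525 to 10699 (median 9628) contralaterally and 1497 to 6069 (median 3985) ipsilaterally. Its log2 fold change was -1.31 ± 0.081 (SE, adjusted p 5.24e-10), and the lowest contralateral library stood above the highest ipsilateral one. The related Sv2a, the binding target of the antiepileptic levetiracetam, and Sv2c had -0.44 ± 0.068 (SE, adjusted p 2.55e-05) and -0.42 ± 0.058 (SE, adjusted p 8.4e-06). Syp, which encodes the classical vesicle marker synaptophysin, ranged from 12249 to 18996 (median 14734) contralaterally and 6166 to 16241 (median 12932) ipsilaterally, with a log2 fold change of -0.33 ± 0.067 (SE, adjusted p 0.000417). Its relative Synpr, a marker of mossy fibre terminals, had -0.30 ± 0.10 (SE, adjusted p 0.0161). Syngr1 had -0.66 ± 0.072 (SE, adjusted p 4.95e-07), and Syngr3 ranged from 3358 to 5005 (median 4168) contralaterally and 2125 to 4417 (median 3767) ipsilaterally with a log2 fold change of -0.18 ± 0.053 (SE, adjusted p 0.00746). Without the 3 animals with high Xist (labelled Neil1-KO replicate 2 at 3 h and at 6 h, and Neil2-KO replicate 2 at 6 h, on both sides) the calls of Synpr, Syngr3, Vamp1 and Rab3a were lost, with adjusted p of 0.0855, 0.062, 0.0895 and 0.0956. Without both libraries that stood apart the log2 fold change of Synpr was -0.17 (adjusted p 0.0312).

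The transporters that fill vesicles with glutamate parted. Slc17a7 (VGLUT1) ranged from 23553 to 39433 (median 28297) contralaterally and 5993 to 26007 (median 16524) ipsilaterally, with a log2 fold change of -0.86 ± 0.092 (SE, adjusted p 3.81e-07), and was lower in 12 of 12 animals. Slc17a6 (VGLUT2), which predominates in thalamus and other subcortical regions, ranged from 556 to 1285 (median 980.4) contralaterally and 566 to 2019.9 (median 951) ipsilaterally, with a log2 fold change of -0.038 ± 0.10 (SE, adjusted p 0.769). Its highest value was in the ipsilateral library WT 6 h replicate 2, where Tcf7l2 and Shox2 were also highest.

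Priming and active-zone genes held both ends of the range. Bsn ranged from 6765 to 10345 (median 8406) contralaterally and 1227 to 4286 (median 3291) ipsilaterally. Its log2 fold change was -1.50 ± 0.11 (SE, adjusted p 4.98e-09), or 0.354 times the contralateral level, and the sides did not overlap. Pclo, the partner scaffold Piccolo, had -0.70 ± 0.07 (SE, adjusted p 1.72e-07). Unc13a, which encodes the priming factor Munc13-1, ranged from 6440.1 to 9035 (median 7363) contralaterally and 2105 to 5325 (median 4077) ipsilaterally, with a log2 fold change of -0.90 ± 0.073 (SE, adjusted p 1.44e-08). Unc13b ranged from 729 to 1115 (median 963) contralaterally and 808 to 1228 (median 1019.6) ipsilaterally and had 0.077 ± 0.059 (SE, adjusted p 0.286). Without WT ipsilateral 6 h replicate 1 the log2 fold change of Unc13b was 0.12. That fit leaves replicate 2, which stood apart and had the highest Unc13b value (1228), alone in its group. Unc13c, the member of the family best known from cerebellar granule cells, ranged from 502 to 745 (median 679.6) contralaterally and 775 to 1899.7 (median 918) ipsilaterally. Its log2 fold change was 0.60 ± 0.10 (SE, adjusted p 6.29e-05), and it was higher in 12 of 12 animals. The RIM genes Rims1 and Rims2, which link vesicles to calcium channels and to Munc13, had -0.34 ± 0.062 (SE, adjusted p 0.000143) and -0.35 ± 0.068 (SE, adjusted p 0.000324). Their relative Rims3 had -0.22 ± 0.061 (SE, adjusted p 0.00594).

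Rab3a, the vesicle GTPase, and its effector Rph3a (rabphilin) were lower by small amounts. Rab3a ranged from 7775 to 10729.5 (median 8666) contralaterally and 4817 to 9467 (median 8307) ipsilaterally with a log2 fold change of -0.16 ± 0.055 (SE, adjusted p 0.0175), and Rph3a from 3775 to 5408 (median 4601) contralaterally and 1958 to 5209.6 (median 3828) ipsilaterally with -0.28 ± 0.061 (SE, adjusted p 0.000954). All 4 endocytosis genes were lower. Synj1 ranged from 7068 to 8411 (median 7652) contralaterally and 2172 to 5889.5 (median 4316) ipsilaterally, with a log2 fold change of -0.87 ± 0.072 (SE, adjusted p 2.04e-08), and the sides did not overlap. Dnm1, the neuronal dynamin that pinches off vesicles, ranged from 12914 to 21391 (median 14973) contralaterally and 4660.4 to 16263 (median 11625) ipsilaterally, with a log2 fold change of -0.52 ± 0.075 (SE, adjusted p 1.41e-05). Amph and Sh3gl2 (endophilin A1) had -0.59 ± 0.079 (SE, adjusted p 5.46e-06) and -0.57 ± 0.059 (SE, adjusted p 2.64e-07).

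**Figure D3:**
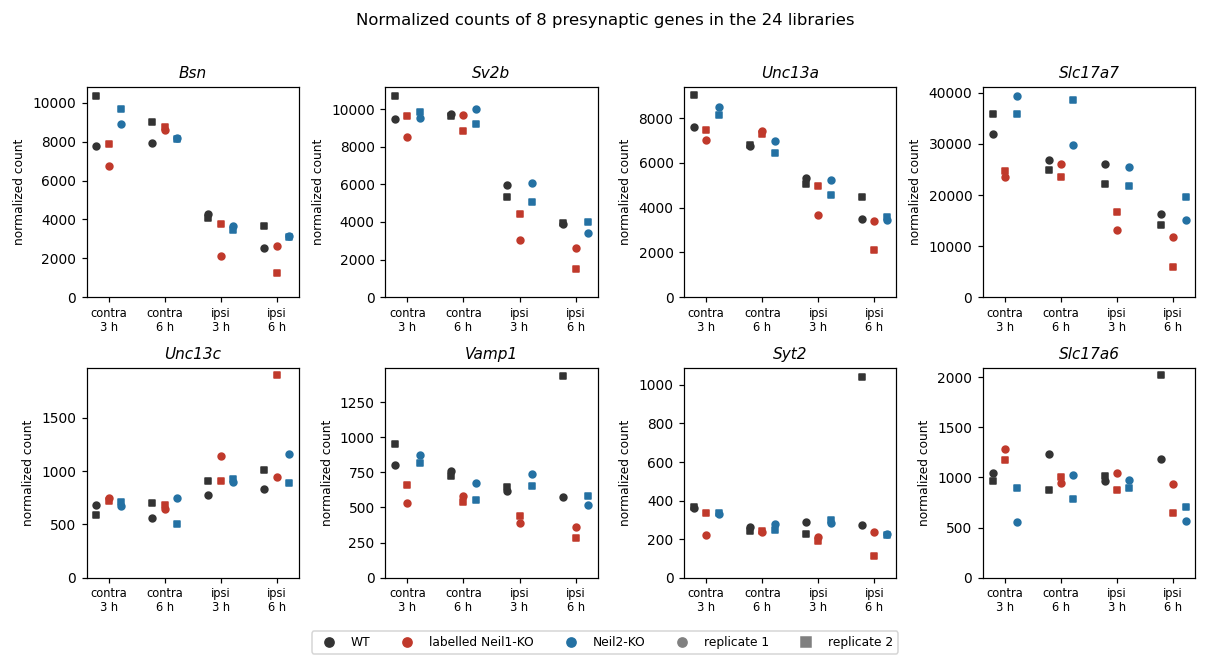
Normalized counts (linear axes from 0) of 8 members in the 24 libraries, by side and time, with colour for genotype and symbol for replicate. Bsn, Sv2b and Unc13a separate the sides without overlap, Unc13c is higher on the ipsilateral side in all groups, and Vamp1, Syt2 and Slc17a6 have their highest value (1437, 1042 and 2020) in WT ipsilateral 6 h replicate 2.

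Related genes were compared within animals to ask whether the members of a family changed by the same amount. The difference between the side responses of 2 relatives was tested in each of 33 pairs from 11 families with a two-sided exact permutation test over the 12 animals (all sign changes), and the p-values were adjusted over the 33 pairs. The smallest p the test can give is 0.000488, and 15 pairs had an adjusted p under 0.05. The pair tests were added after the values were seen, so their p-values describe differences already in view and are no independent check. Each difference below is the log2 side response of the first gene minus that of the second. In the Munc13 family it was -0.97 ± 0.27 (SD, n = 12) for Unc13a minus Unc13b and -1.49 ± 0.64 (SD, n = 12) for Unc13a minus Unc13c. Bsn fell more than Pclo, with a difference of -0.80 ± 0.22 (SD, n = 12). Among the SV2 genes, Sv2b fell more than either relative, with -0.89 ± 0.61 (SD, n = 12) for Sv2b minus Sv2c and 0.86 ± 0.30 (SD, n = 12) for Sv2a minus Sv2b. The difference was 0.82 ± 0.58 (SD, n = 12) for Slc17a6 minus Slc17a7 and 0.51 ± 0.17 (SD, n = 12) for Cplx1 minus Cplx2. It was -0.48 ± 0.18 (SD, n = 12) for Syngr1 minus Syngr3 and 0.36 ± 0.19 (SD, n = 12) for Syt5 minus Syt7. Each of these 9 differences had the same sign in 12 of 12 animals, an exact permutation p of 0.000488 and an adjusted p of 0.00179. Unc13b and Unc13c differed by -0.52 ± 0.47 (SD, n = 12), in 10 of 12 animals (exact permutation p 0.00195, adjusted p 0.00537). The 5 other pairs under the threshold were Syt1 and Syt5, Syt2 and Syt7, Syt4 and Syt5, Syt5 and Syt11, and Syn2 and Syn3.

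Pairs whose difference did not pass the test included the synaptobrevins Vamp1 and Vamp2 (0.00091 ± 0.36 (SD, n = 12)), Rims1 and Rims2 (0.0038 ± 0.13 (SD, n = 12)), Syp and Synpr (-0.033 ± 0.47 (SD, n = 12)) and Sv2a and Sv2c (-0.024 ± 0.38 (SD, n = 12)). Larger differences that also did not pass were Syt1 minus Syt2 (-0.39 ± 0.66 (SD, n = 12)), Syn1 minus Syn2 (0.19 ± 0.34 (SD, n = 12)) and Syn1 minus Syn3 (-0.20 ± 0.42 (SD, n = 12)). Neither did Rims1 minus Rims3 (-0.12 ± 0.21 (SD, n = 12)) nor Rims2 minus Rims3 (-0.13 ± 0.26 (SD, n = 12)). The remaining pairs that did not pass were synaptotagmins. A missed threshold does not show that the responses were alike. Without both 6 h animals whose ipsilateral library stood apart, 13 pairs passed, all of them among the 15, and the pairs Syt4 and Syt5 (adjusted exact permutation p 0.161) and Syn2 and Syn3 (0.129) did not. Leaving out each animal in turn left 13 to 17 pairs under the threshold.

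**Figure D4:**
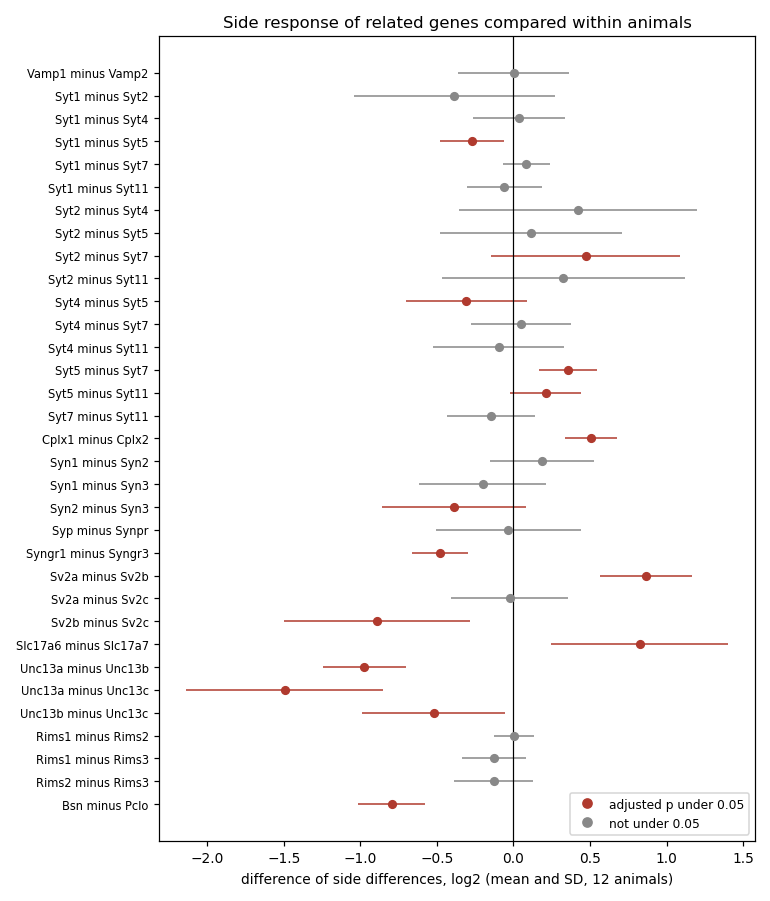
Difference between the side responses (log2) of 33 pairs of related genes, as the mean and SD over 12 animals. The 15 pairs with an adjusted p under 0.05 are in red. The pair with the lowest value is Unc13a minus Unc13c at -1.49, and Rims1 minus Rims2 lies near 0.

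Within single groups of 2 libraries a side, the calls ranged from a few genes to most of the list. Shares of all genes are given for these fits but not for the refits at the end of the paragraph. The refit counts show only how the calls move. In WT at 3 h, 4 of 40 genes were called lower (Sv2b, Sv2c, Unc13a and Bsn), where 1.79% of all genes tested were called lower, and the median of the 40 was -0.31. In labelled Neil1-KO at 3 h, 20 were called lower (9.85% of all genes), with a median of -0.49. In Neil2-KO at 3 h, 7 were called lower (4.95% of all genes), with a median of -0.28, and these were Syt7, Syt11, Sv2b, Sv2c, Unc13a, Bsn and Synj1. At 6 h, 11 were called lower in WT (10.3% of all genes, median -0.21): Nsf, Syt11, Cplx2, Syn2, Sv2b, Slc17a7, Unc13a, Bsn, Pclo, Synj1 and Sh3gl2. In labelled Neil1-KO at 6 h, 33 were called lower (21.4% of all genes, median -0.85) and Unc13c was called higher (17.6% of all genes). In Neil2-KO at 6 h, 21 were called lower (12.6% of all genes, median -0.48) and Unc13c was called higher (12.2% of all genes). These counts depend on the libraries in the fit: with both libraries that stood apart left out, the counts called were 15 in WT and 18 in Neil2-KO at 3 h and 18 in WT at 6 h, and without the animals with high Xist they were 14 in WT and 14 in Neil2-KO at 3 h. Without WT ipsilateral 6 h replicate 2 the count in WT at 6 h was 7. Leaving out either labelled Neil1-KO ipsilateral 6 h library gave 11 in WT at 3 h, 15 in Neil2-KO at 3 h and 17 in WT at 6 h, since all groups share one estimate of the spread.

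Sv2b, Unc13a and Bsn were the 3 members called lower in all 6 side comparisons. Bsn had, in replicates 1 and 2 on the contralateral side at 3 h, 7758 and 10345 in WT, 8902 and 9658 in Neil2-KO, and 6765 and 7889.7 in labelled Neil1-KO, and on the ipsilateral side 4286 and 4070.4 in WT, 3675 and 3432 in Neil2-KO, and 2124 and 3742 in labelled Neil1-KO. At 6 h the contralateral values were 7929.7 and 9005 in WT, 8198 and 8127 in Neil2-KO, and 8613 and 8772 in labelled Neil1-KO, and the ipsilateral ones 2545 and 3687 in WT, 3150.1 and 3094 in Neil2-KO, and 2633 and 1227 in labelled Neil1-KO. Every ipsilateral value of Bsn was at or under 4286, and every contralateral one was at or over 6765. The log2 fold changes of Bsn were -1.10 in WT, -1.38 in Neil2-KO and -1.37 in labelled Neil1-KO at 3 h, and -1.46, -1.39 and -2.27 in the same order at 6 h. Those of Sv2b were -0.84 in WT, -0.80 in Neil2-KO and -1.31 in labelled Neil1-KO at 3 h, and -1.30, -1.38 and -2.22 in the same order at 6 h, and those of Unc13a were -0.68 in WT, -0.77 in Neil2-KO and -0.77 in labelled Neil1-KO at 3 h, and -0.78, -0.93 and -1.46 in the same order at 6 h. Slc17a7 had -0.49 in WT, -0.67 in Neil2-KO and -0.71 in labelled Neil1-KO at 3 h, and -0.77, -0.97 and -1.56 in the same order at 6 h, and passed the test in 4 of the 6. Unc13c had 0.41 in WT, 0.40 in Neil2-KO and 0.47 in labelled Neil1-KO at 3 h, and 0.55, 0.73 and 1.01 in the same order at 6 h, and passed at 6 h in Neil2-KO and labelled Neil1-KO. Its highest value, 1900, was in labelled Neil1-KO ipsilateral 6 h replicate 2, the library in which 34 other members were at their lowest.

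The side response was compared between the times, as the mean over genotypes. Only Sv2b was called, with a larger decrease at 6 h than at 3 h by -0.65 ± 0.16 (SE, adjusted p 0.0454), where 0.463% of all genes tested were called lower. The ipsilateral Sv2b values at 3 h were 5962 and 5324 in WT, 6069 and 5085 in Neil2-KO, and 3029.5 and 4409 in labelled Neil1-KO, and at 6 h 3891 and 3952 in WT, 3386 and 4018 in Neil2-KO, and 2632 and 1497 in labelled Neil1-KO. The contralateral ones lay between 8525 and 10699 at both times. The call of Sv2b was lost (adjusted p up to 0.117) in 19 of the 24 fits that left out 1 library and without the 3 animals with high Xist. Without both libraries that stood apart, Pclo was called as well (-0.49, adjusted p 0.0148). For 35 of the 40 genes the estimate was negative, against 51% of all genes tested, and 14 had an unadjusted p under 0.05, against 16.6% of all genes.

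On each side alone, 6 h was compared with 3 h as the mean over genotypes. In the contralateral hippocampus no member was called (0.332% of all genes tested were, in either direction), with limma, edgeR or DESeq2, and 7 had an unadjusted p under 0.05, against 12.6% of all genes. The median log2 fold change of the 40 genes was -0.12 there, against -0.014 over all genes tested. Without both libraries that stood apart Cplx1, Syngr3, Rph3a and Dnm1 were called lower at 6 h, with log2 fold changes from -0.27 to -0.21. In the ipsilateral hippocampus 23 members were called lower at 6 h than at 3 h, where 7.52% of all genes were, and the median of the 40 was -0.36. The lowest were Sv2b at -0.66 ± 0.11 (SE, adjusted p 0.00191), Slc17a7 at -0.64 ± 0.13 (SE, adjusted p 0.00491) and Pclo at -0.59 ± 0.10 (SE, adjusted p 0.00171). Snap25, Nsf, Syt1, Syn1, Syp, Dnm1 and Rph3a were also called, at -0.43, -0.52, -0.37, -0.41, -0.37, -0.48 and -0.43 on the log2 scale. Bsn was not (-0.43 ± 0.16 (SE, adjusted p 0.0828)), nor were Unc13c (0.22 ± 0.14 (SE, adjusted p 0.326)) and Sv2c (0.22 ± 0.083 (SE, adjusted p 0.0939)). No member had all its 6 h ipsilateral values below all its 3 h ones, as 0.844% of all genes tested did. Shares of all genes are not given beside the refits that follow. The count was 3 when only the ipsilateral groups entered the fit, 15 without the animals with high Xist and 15 without Neil2-KO ipsilateral 3 h replicate 1. Of the genes named, Syn1, Syp and Dnm1 lost their call without the animals with high Xist (adjusted p 0.0702, 0.0647 and 0.0582). Bsn was called lower without WT ipsilateral 6 h replicate 2 (adjusted p 0.0488). Without labelled Neil1-KO ipsilateral 6 h replicate 2, Sv2c was called higher (adjusted p 0.0249) and Syn1 had -0.26.

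The genotypes were compared within each side of the brain, averaging 3 h and 6 h. In the contralateral hippocampus no member was called with limma, edgeR or DESeq2 for labelled Neil1-KO against WT (0.103% of all genes were called) or for Neil2-KO against WT (0.0817%), and 2 and 3 members had an unadjusted p under 0.05, against 6.76% and 8.61% of all genes. Without both libraries that stood apart Vamp1 was called lower in the contralateral hippocampus of labelled Neil1-KO (-0.49, adjusted p 0.0284). In the ipsilateral hippocampus no member was called for Neil2-KO against WT (0.109% of all genes), 5 had an unadjusted p under 0.05 (5.8% of all genes did), edgeR called none and DESeq2 called 1 (0.207% of all genes). Without WT ipsilateral 6 h replicate 1, replicate 2, which stood apart and had the highest Vamp1, Syt2 and Slc17a6, was alone in its group. The log2 fold changes of Vamp1, Syt2 and Slc17a6 for Neil2-KO against WT were then -0.63, -1.01 and -0.88. For labelled Neil1-KO against WT on the ipsilateral side, 30 of the 40 genes were called lower and none higher, where 7.4% of all genes were called lower, and the median of the 40 was -0.54.

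With all libraries in the fit, the differences between labelled Neil1-KO and WT were largest for Vamp1, Syt2, Sv2b, Slc17a7 and Dnm1. Ipsilateral Vamp1 was at 620.3 and 645 at 3 h and 572 and 1437 at 6 h in WT, against 387 and 440.4 at 3 h and 363 and 286 at 6 h in labelled Neil1-KO, a log2 fold change of -1.05 ± 0.19 (SE, adjusted p 0.00597). All 4 labelled Neil1-KO values lay below all 4 WT values, of which WT 6 h replicate 2 was the highest. Without both libraries that stood apart the log2 fold change of Vamp1 was -0.63 (adjusted p 0.0179), and without the animals with high Xist its call was lost (-1.01, adjusted p 0.0539). Ipsilateral Dnm1 was at 16263 and 14570.2 at 3 h and 10019.7 and 13009 at 6 h in WT, against 8859 and 10799.8 at 3 h and 7952 and 4660.4 at 6 h in labelled Neil1-KO, a log2 fold change of -0.78 ± 0.13 (SE, adjusted p 0.00499), and the groups overlapped. Ipsilateral Slc17a7 was at 26007 and 22164 at 3 h and 16368 and 14209 at 6 h in WT, against 13089.5 and 16679.9 at 3 h and 11749.9 and 5993 at 6 h in labelled Neil1-KO, a log2 fold change of -0.78 ± 0.16 (SE, adjusted p 0.0104), and the groups overlapped. Ipsilateral Sv2b was at 5962 and 5324 at 3 h and 3891 and 3952 at 6 h in WT, against 3029.5 and 4409 at 3 h and 2632 and 1497 at 6 h in labelled Neil1-KO, a log2 fold change of -0.80 ± 0.14 (SE, adjusted p 0.00561), again with overlap. Ipsilateral Syt2 was at 291 and 226 at 3 h and 271 and 1042 at 6 h in WT, against 210.3 and 192 at 3 h and 237 and 110.2 at 6 h in labelled Neil1-KO, a log2 fold change of -1.03 ± 0.29 (SE, adjusted p 0.0337). This call was lost in 5 of the 24 fits that left out 1 library. Without WT 6 h replicate 2, whose value was 1042, the log2 fold change of Syt2 was -0.55 (adjusted p 0.141), without both libraries that stood apart -0.27 (adjusted p 0.485) and without the animals with high Xist -0.72 (adjusted p 0.283).

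Of the fusion proteins, Snap25 was at 19408 and 18578 at 3 h and 15644 and 13331 at 6 h in WT, against 12399.6 and 15313 at 3 h and 11184 and 7873 at 6 h in labelled Neil1-KO, a log2 fold change of -0.54 ± 0.11 (SE, adjusted p 0.00821). Vamp2 was at 20966 and 19879 at 3 h and 17059 and 18944 at 6 h in WT, against 15783 and 16573 at 3 h and 14938 and 11229 at 6 h in labelled Neil1-KO, with -0.40 ± 0.091 (SE, adjusted p 0.0142), and Stx1a had -0.37 ± 0.10 (SE, adjusted p 0.0318). The calcium sensor Syt1 was at 19505 and 18219 at 3 h and 14435 and 18993 at 6 h in WT, against 13960.0 and 13851 at 3 h and 11808 and 8218 at 6 h in labelled Neil1-KO, with -0.59 ± 0.10 (SE, adjusted p 0.00558). In Vamp2 and Syt1 all 4 labelled Neil1-KO values lay below all 4 WT values, as they did in Vamp1, Syt7, Rab3a and Rph3a, which made 6 of the 40 genes, against 3.96% of all genes tested. Syt7 had -0.58 ± 0.12 (SE, adjusted p 0.0122), Rab3a -0.40 ± 0.095 (SE, adjusted p 0.0177) and Rph3a -0.63 ± 0.11 (SE, adjusted p 0.00517). Of the vesicle proteins, Syp had -0.54 ± 0.12 (SE, adjusted p 0.0122) and Syn1 -0.65 ± 0.14 (SE, adjusted p 0.0122). The other 16 called genes were Nsf, Napb, Syt11, Cplx1, Syn2, Syngr1, Syngr3, Sv2a, Unc13a, Rims1, Rims2, Bsn, Pclo, Amph, Synj1 and Sh3gl2, with log2 fold changes from -0.75 to -0.24. The 10 that were not called were Syt4, Syt5, Cplx2, Syn3, Synpr, Sv2c, Slc17a6, Unc13b, Unc13c and Rims3, and Unc13c was the only member with a positive estimate (0.41 ± 0.17 (SE, adjusted p 0.13)).

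This count moved with the samples in the fit, with shares of all genes given only for edgeR and DESeq2. It was 0 when only the compared groups entered the fit, 10 without both libraries that stood apart, 21 without the animals with high Xist, 26 with edgeR (9.03% of all genes were called in either direction) and 33 with DESeq2 (13.2%). The 10 called without both libraries that stood apart were Snap25, Vamp1, Syt1, Cplx1, Syn2, Syngr1, Sv2b, Slc17a7, Rph3a and Dnm1, and the other 20 of the 30 lost their call. Among the 10, Syt1, Syngr1, Rph3a and Dnm1 then had -0.36, -0.48, -0.40 and -0.49 on the log2 scale. Without the animals with high Xist, 9 lost their call: Vamp1, Vamp2, Stx1a, Syt2, Syt11, Syngr3, Unc13a, Rab3a and Amph, with adjusted p from 0.0539 to 0.283. It was 8 without WT ipsilateral 3 h replicate 1 or without labelled Neil1-KO ipsilateral 3 h replicate 1, and 17 without WT ipsilateral 6 h replicate 2 or without labelled Neil1-KO ipsilateral 6 h replicate 2. No WT animal had high Xist, so leaving out those animals cannot separate Xist from genotype. It leaves 1 library in each labelled Neil1-KO group and removes labelled Neil1-KO ipsilateral 6 h replicate 2, which stood apart. Other markers differed between the ipsilateral labelled Neil1-KO and WT groups as well. Of the 14 neuron markers 7 were called lower in labelled Neil1-KO, with a median of -0.38, and their summed level was 127739 to 142549 normalized counts in the 4 WT libraries and 79206 to 135758 in the 4 labelled Neil1-KO libraries. Endothelial markers summed to 6530 to 8661 in WT and 7766 to 15583 in labelled Neil1-KO, where 2 of 10 were called higher, microglia markers to 4347 to 4511 and 3619 to 9426, and astrocyte markers to 63532 to 99820.0 and 76181 to 133137, with 0 of 10 called in each of the latter lists. Choroid plexus markers summed to 380.7 to 662.3 in WT and 316 to 21323 in labelled Neil1-KO, with 0 of 10 called, and 3 of 10 thalamus markers were called lower. The thalamus list includes Slc17a6, which is also a member and was not called here. Tcf7l2 and Shox2 of that list were highest in both WT ipsilateral 6 h libraries. The part of these markers in the members' difference was not tested.

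The difference between genotypes in the side response itself was tested at each time. No member was called in any of the 4 tests (labelled Neil1-KO or Neil2-KO against WT, at 3 h or 6 h), where 0% of all genes were called with limma. At 3 h no member had an unadjusted p under 0.05 for either knockout, where 4.3% of all genes did for labelled Neil1-KO and 1.25% for Neil2-KO. At 6 h, 29 members had one for labelled Neil1-KO (20.6% of all genes), whose median difference from WT was -0.68, and 5 for Neil2-KO (9.2% of all genes), with a median of -0.23. DESeq2 called 14 members for labelled Neil1-KO at 6 h (2.58% of all genes) and none for the other 3 tests. The quasi-likelihood test of edgeR called none in the 4 tests. In the refits that follow, a replicate 2 library that stood apart was left alone in its group. With limma, 35 members and 20.7% of all genes were called for labelled Neil1-KO at 6 h without labelled Neil1-KO ipsilateral 6 h replicate 1, which leaves replicate 2 alone in its group. Without WT ipsilateral 6 h replicate 1, 18 members and 8.28% of all genes were called for labelled Neil1-KO at 6 h, and 4 members and 1.58% of all genes for Neil2-KO at 6 h.

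**Figure D5:**
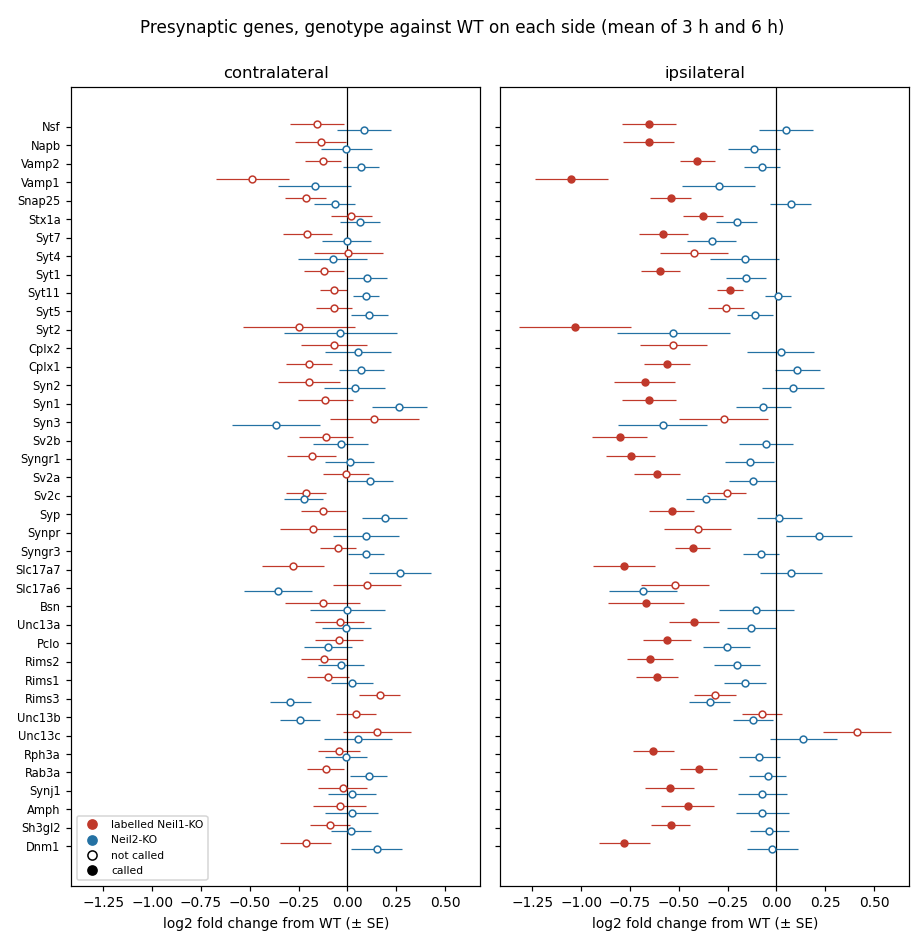
Log2 fold change from WT, with SE, of the 40 genes on the contralateral (left) and ipsilateral (right) side as the mean of 3 h and 6 h, for labelled Neil1-KO (red) and Neil2-KO (blue), with filled symbols for called genes. No contralateral symbol is filled, and 30 of the 40 labelled Neil1-KO symbols are filled on the ipsilateral side.

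Another 64 presynaptic genes were taken as a list of their own, of which 63 were tested. On average over the 6 side comparisons 49 were called lower, 3 higher and 11 neither, with a median of -0.42, next to 27.3% lower and 28.1% higher over all genes. The 3 with the smallest adjusted p were Snph (syntaphilin, an anchor of axonal mitochondria) at -1.04 ± 0.059 (adjusted p 1.74e-10), Cacna1e (a calcium channel subunit) at -1.15 ± 0.081 (adjusted p 2.46e-09) and Rimbp2 (a RIM-binding protein) at -0.87 ± 0.069 (adjusted p 1.21e-08). The 3 that were higher were Cplx3 at 1.43 ± 0.28 (adjusted p 0.000318), Syt6 at 0.69 ± 0.15 (adjusted p 0.000617) and Dnm2, the dynamin of most cell types, at 0.16 ± 0.044 (adjusted p 0.00545). Slc32a1, the vesicular GABA transporter, and Slc17a8, the glutamate transporter VGLUT3, were not called.

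Markers of cell types were read beside these values, in the same comparison, where 27.3% of all genes were called lower and 28.1% higher. All 14 neuron markers were called lower on the ipsilateral side (median -0.46), among them Map2 at -0.77 ± 0.061 (adjusted p 9.88e-09) and Myt1l at -0.80 ± 0.074 (adjusted p 6.61e-08). All 8 dentate gyrus markers (median -0.74) and 7 of 8 CA1 and CA3 markers (median -0.73) were lower, for example Stxbp6 at -0.52 ± 0.048 (adjusted p 6.83e-08) and Fibcd1 at -1.38 ± 0.17 (adjusted p 2.07e-06). Of 10 interneuron markers 3 were lower and 2 higher. Among non-neuronal lists, 7 of 10 endothelial markers were higher and 1 lower (median 0.53), 5 of 10 microglia markers higher and 3 lower (0.30), 4 of 10 astrocyte markers higher and 3 lower (0.14), and 2 of 10 oligodendrocyte lineage markers lower. Of the thalamus markers, which include the member Slc17a6, 2 were higher and 1 lower. Of the striatum markers 4 were higher and 3 lower, and 2 of 10 choroid plexus markers were lower. All 10 immediate early genes were higher (median 2.91). The part of these cell types in the members' values was not tested.

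Length was compared with the response as a description across genes. Over the 40 members, Spearman's rho between the side difference and the length of the longest coding transcript was -0.29, and with the span of the gene it was -0.088 (lengths from GENCODE on GRCm38). The members share their libraries and are not independent replicates. Whether the sequencing or the counting used strand is not given in the sources used here, so a member's reads may include those of a transcript from the opposite strand.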

How the data were processed

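RNA was sequenced from 24 hippocampus libraries of mouse pups, in 12 groups of 2. The deposited table holds 1 signal value per gene and library, which is a read count normalized by a size factor. In each library 100% of values were whole multiples of a single read's worth (tolerance 1e-06), so whole reads were recovered for the count-based alternatives. Trim Galore, HISAT2, SAMtools, featureCounts, DESeq2 and the genome GRCm39 (mm39) are named in the submitters' processing notes. Their versions and settings, including strand, are not given in the sources used here. Of 33084 lines, 10770 (32.6%) carried no gene name and were left out of the tests, and they held 8.41% to 12.5% of the reads of a library.

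Named genes with a value of at least 10 in at least 2 libraries were tested (18364, or 82.3%), in limma-trend fits (limma 3.58.1, R 4.3.3) of log2(value + 1) with 1 mean per group over all 24 libraries and 12 residual degrees of freedom. Called means that the two-sided p, adjusted by Benjamini and Hochberg over every gene tested in that comparison, was under 0.05, and there were 18 comparisons. Group values and ranges are normalized counts, and fold changes on the log2(value + 1) scale understate changes of low genes. The fit was tested on simulated data before use. Pairs of related genes were compared with exact permutation tests (scipy 1.17.1). The members, the lists and the tests were chosen with earlier results of these data known, and the pair tests were added after the values were seen. Members were named by a rule: the lowest and highest of each role in the mean of the 6 side comparisons, those called higher, those called between genotypes, and 8 textbook members. Up to 4 genes of each other list were eligible to be named by smallest adjusted p. The rule also called for protein sequences, and none is printed.

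Alternatives were a pseudocount of 5, no filter, edgeR 4.0.16 (quasi-likelihood, TMM), DESeq2 1.42.0 (Wald), only the compared groups, a replicate block and leaving out each library, and, added after the data were seen, leaving out the 3 animals with high Xist or both libraries that stood apart. Same-numbered libraries of the sides count as 1 animal, because the design text says that both sides were collected from each replicate. Deviations of same-numbered sides from their group means correlated at -0.0058 and -0.0033 in WT (3 h and 6 h), 0.27 and 0.15 in labelled Neil1-KO, and 0.054 and 0.035 in Neil2-KO, over 18364 genes.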

Additional observations from a re-analysis of the deposited data

Results flagged for a closer look

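The side response of Sv2b differed between 3 h and 6 h. The ipsilateral minus contralateral difference was larger at 6 h by -0.65 on the log2 scale (adjusted p 0.0454, limma over 18364 genes, mean of 3 genotypes), and all 6 ipsilateral values at 6 h (1497 to 4018) lay below 5 of the 6 at 3 h (3030 to 6069). Sv2b was the only member of the 40 that passed the test of the difference itself. Of all 18364 genes tested, 85 (0.463%) were called lower and 263 higher in this comparison. The call was lost in 19 of the 24 fits that left out 1 library and without the 3 animals with high Xist, with adjusted p from 0.0018 to 0.117 over all alternatives.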

How the results depend on the processing

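For the mean of the 6 side comparisons, the count of called members stayed at 36 to 38 when any 1 library was left out (37 in the fit with all libraries), and no member changed sign and kept a call in any of the 31 alternatives. With a replicate block (the animal for sides, the number otherwise), counts were 3, 19 and 8 for WT, labelled Neil1-KO and Neil2-KO sides at 3 h, 13, 35 and 22 at 6 h, 37 for their mean, 28 for labelled Neil1-KO against WT and 23 for 6 h against 3 h on the ipsilateral side, so no count moved by over 1.5 times. Same-numbered libraries of groups that share no animal correlated at a median of 0.0068 (-0.34 to 0.28 over 60 pairs of groups, 8 of them over 0.1). The correlations of same-numbered sides, -0.0058 to 0.27, lay inside that range. This measure therefore does not show whether the number pairs the sides, and the pairing rests on the design text. Scaling by TMM or DESeq2 moved the median of all genes by less than 0.1 on the log2 scale in each comparison.

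When only the groups being compared were fitted, counts were 16 for the WT sides at 3 h, 19 for Neil2-KO at 3 h, 18 for the labelled Neil1-KO sides at 6 h, 1 for labelled Neil1-KO against WT contralaterally and 0 ipsilaterally, and 3 on each side for 6 h against 3 h. Without the animals with high Xist they were 14 for WT and 14 for Neil2-KO at 3 h, 0 for the side response at 6 h against 3 h and 15 for the ipsilateral 6 h against 3 h. Without both libraries that stood apart they were 15 for WT and 18 for Neil2-KO at 3 h, 18 for WT at 6 h, 2 for the side response over time, 1 and 10 for labelled Neil1-KO against WT on the contralateral and ipsilateral side, and 4 for 6 h against 3 h contralaterally. Both edgeR and DESeq2 called 2 members for the side response over time, and DESeq2 called 14 for labelled Neil1-KO against WT in the side response at 6 h and 1 for Neil2-KO against WT ipsilaterally. Shares of all genes are not given beside these counts, and the cause was not tested.

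Leaving out each library in turn gave at 3 h 0 to 11 called members for the WT sides, 3 to 27 for labelled Neil1-KO and 0 to 15 for Neil2-KO, and at 6 h 4 to 17 for WT, 28 to 37 for labelled Neil1-KO and 7 to 27 for Neil2-KO. The lowest counts came without WT contralateral or ipsilateral 3 h replicate 2 (0 each, and 1 without either replicate 1), labelled Neil1-KO contralateral 3 h replicate 2 or ipsilateral 3 h replicate 1 (3 each, and 7 without contralateral replicate 1), Neil2-KO ipsilateral 3 h replicate 2 (0, and 1 and 2 without contralateral replicates 1 and 2), WT contralateral 6 h replicate 2 (4, 6 without replicate 1 and 7 without ipsilateral replicate 2) and Neil2-KO ipsilateral 6 h replicate 1 (7, and 11 without contralateral replicate 2). A group of 1 library is then assumed to vary like the others, and shares of all genes are not given beside these counts. The ranges were 0 to 19 for the side response over time (19 without labelled Neil1-KO ipsilateral 6 h replicate 1), 0 to 35 and 0 to 4 for labelled Neil1-KO and Neil2-KO against WT in the side response at 6 h, 8 to 38 and 0 to 7 for them against WT ipsilaterally, 15 to 31 for 6 h against 3 h ipsilaterally, and 13 to 17 for pairs of related genes.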

Other observations

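Among the presynaptic relatives outside the 40 genes, Cplx3 and Syt6 were called higher on the ipsilateral side in single groups at 6 h. Cplx3, a complexin known from ribbon synapses and subplate neurons, was called higher in WT at 6 h (log2 fold change 2.61, adjusted p 0.0124) and in labelled Neil1-KO (3.68, adjusted p 0.000457), and Neil2-KO had 1.07 (adjusted p 0.286). At 6 h Syt6 had 1.24 in WT, 1.16 in Neil2-KO and 1.14 in labelled Neil1-KO (adjusted p 0.0199, 0.0239 and 0.0177), and in the same order 0.33, -0.076 and 0.34 at 3 h, where it was not called. The side response at 6 h minus that at 3 h, as the mean over genotypes, was 2.05 ± 0.56 (SE, adjusted p 0.0697) for Cplx3 and 0.98 ± 0.29 (SE, adjusted p 0.0911) for Syt6, and neither passed the limma test over 18364 genes.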
